A study of Mus musculus with 36 samples.

Results

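The comparison set lungs of mice that had received ultrasmall graphene oxide sheets (US) against lungs of mice that had received the dextrose carrier alone (D), both collected 7 days after a single dose. Its members were all genes that passed a filter on low counts, 16903 of the 46078 genes in the count table, and 6 of the 36 libraries, 3 per group. The US mice were female wild type C57BL/6 animals of 10 weeks that had each been given 50 µg of sheets in 50 µl of 5% dextrose through the nose under isoflurane. The D mice were of the same sex, strain and age and were given the same volume of 5% dextrose. Small (S) and large (L) sheets at the same dose, and collections at days 1, 7 and 28, completed the design and are used here only where they bear on the US and D lungs of day 7. The mice collected at day 1 were 9 weeks old and those collected at day 28 were 13 weeks old, so a comparison with the D libraries of days 1 and 28 is also one between ages and collection days. The design text asks whether the lateral size of the sheets alters the response of the lung.

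Pieces of every lobe were taken after the large airways had been dissected away, so each library mixes alveolar, vascular, immune and small airway cells. The labels describe groups of 4 to 5 animals but do not say that each library came from 1 animal, so p-values here measure the spread between libraries. The mice were kept under a regular light and dark cycle. The labels give no hour of death, so the time of collection could not enter any fit.

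Most of the genes whose difference held whichever library was left out belonged to the circadian clock, a feedback loop of transcription factors that runs in nearly every cell of the lung. CLOCK or NPAS2 pairs with the protein of Arntl (BMAL1) and activates genes through E-box elements, among them the Per and Cry genes, whose products return to the nucleus and repress the pair. The same activators drive Nr1d1 and Nr1d2 (REV-ERB alpha and beta), which silence Arntl and Npas2 through ROR elements, and Dbp, Tef and Hlf, which act through D-box elements. Transcripts of the activator Arntl and of the E-box and D-box driven genes therefore peak at opposite phases of the day in mouse tissues.

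Read totals of the 6 libraries were 21834691, 17479799 and 20580939 assigned counts in the US lungs and 17276720, 18593000 and 19766971 in the D lungs. At these depths 1 CPM, the unit of level used below (counts scaled to library size), stands for about 17 to 22 counts. Lung markers were abundant in both groups, for example Sftpc, the surfactant protein C gene of alveolar type 2 cells, at 17890, 24130 and 17620 CPM in US lungs against 25550, 22930 and 20430 CPM in D lungs.

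One property of the libraries moved with the groups and touches every count below. The median gene of the shortest decile by transcript length deviated from the mean of the 36 libraries by -0.04, 0.21 and -0.16 on the log2 scale in the US libraries and by 0.44, 0.33 and 0.04 in the D libraries of day 7, while the 6 D libraries of days 1 and 28 lay between -0.12 and -0.01. D replicates 1 and 2 of day 7 thus stood apart from all other carrier libraries, but not from all libraries of day 7. L replicates 1, 2 and 3 of day 7 lay at 0.48, 0.24 and 0.02, and S replicates 1, 2 and 3 at 0.07, 0.29 and 0.27. The median log2 fold change of US over D was -0.25 in the shortest decile and 0.26 in the longest, and 0.12 in the decile of lowest GC content and -0.31 in that of highest. The part of this trend in any single result was not tested, so values with the length and GC trends removed, and values against the D libraries of days 1 and 28 in place of those of day 7, are given where they end a call or move a value. The D libraries of day 7 differed from those of days 1 and 28 in 3161 genes (18.7% of those tested), and in 144 with the trends removed. That count was 4 without D replicate 1 of day 7 and 5 without D replicate 2, 1443 without D replicate 1 of day 1 and 1953 without D replicate 2 of day 28, so every count below of genes that differed between the carrier lungs rests on single libraries.

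**Figure D1:**
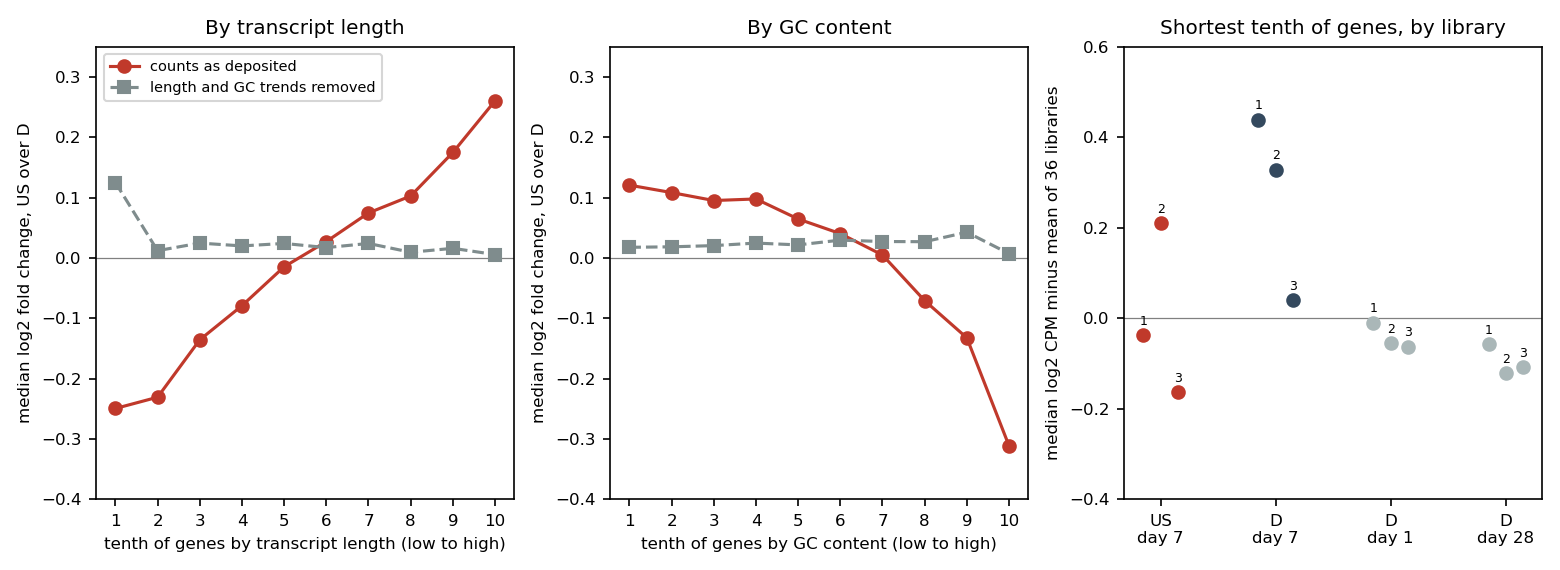
Median log2 fold change of US over D at day 7 (y axis, log2) in deciles of transcript length and of GC content, with counts as deposited and with the trends removed, and the median log2 CPM of the shortest decile in each US and D library, as a deviation from the mean of the 36 libraries. The fold change climbs with length to 0.26 in the longest decile and drops with GC content to -0.31 in the highest, and D replicates 1 and 2 of day 7 lie at 0.44 and 0.33.

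In all, 353 genes (2.09% of the 16903 tested) passed an adjusted p of 0.05 in edgeR's quasi-likelihood test, 153 higher (0.905%) and 200 lower (1.18%) in US lungs. The fold was modest for most: the genes called higher had a median of 1.63-fold, with 40 over 2-fold, and those called lower a median of 1.77-fold, with 76 over 2-fold. All 3 US libraries lay outside the range of the 3 D libraries for 318 of the 353, where 3154 of all genes tested (18.7%) did so. The median length of the genes called higher was 4623 bases and that of the genes called lower 1699 bases, against 2898 bases over all tested genes, and 38 genes of the longest decile were called higher and 0 lower. With the trends removed 207 of the 353 were called again, and 43 were called against the D libraries of days 1 and 28. Because these are whole pieces of lung, fewer cells of a type and less RNA per cell cannot be told apart in any of these values.

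Of the 353, only 17 were called in every fit that left out 1 of the 6 libraries. They were Npas2, Arntl, Per2, Per3, Tef, Hlf, Nr1d2, Bhlhe40 and Bhlhe41 of the clock, the clock-associated Leo1, and Ccnjl, Avpr1a, Rasl11a, Nt5e, Ccdc184, Dnah7b and Rasd2. With the trends removed 16 of these 17 were called, all but Dnah7b, and against the D libraries of days 1 and 28 again 16, all but Ccdc184. With the trends removed and 1 library left out at a time, 11 of the 17 were called in all 6 fits. Nr1d2, Bhlhe40, Bhlhe41, Rasl11a, Nt5e and Dnah7b were not. Every call named below outside these 17 was lost in at least 1 such fit, and 285 of the 353 were called in exactly 2 of the 6 fits. The total count of calls was 18 without D replicate 1, 42 without D replicate 2, 2224 without D replicate 3, 47 without US replicate 1, 3035 without US replicate 2 and 18 without US replicate 3.

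The promoter windows of 4 clock genes whose transcripts differed between the groups are shown to place the elements by which the loop is wired beside the values that follow. The windows are those of RefSeq for GRCm38.p6, just around an annotated transcript start, and 19 of the 24 clock genes had one. Capitals mark a ROR element, spelled AA and TAGGTCA with any base between them, in Arntl (chr7:113207261-113207560, plus strand), a D-box written TTATGTAA or TTACGTAA in Per3 (chr4:151044616-151044915, minus strand), and an E-box, written CACGTG, in Tef (chr15:81811164-81811463, plus strand) and in Bhlhe41 (chr6:145865371-145865670, minus strand).
Arntl: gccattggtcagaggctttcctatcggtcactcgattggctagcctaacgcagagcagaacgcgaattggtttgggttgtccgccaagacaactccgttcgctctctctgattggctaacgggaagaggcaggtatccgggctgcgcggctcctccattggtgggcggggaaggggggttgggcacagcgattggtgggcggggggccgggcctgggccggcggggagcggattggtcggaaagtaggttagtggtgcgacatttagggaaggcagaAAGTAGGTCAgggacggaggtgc
Per3: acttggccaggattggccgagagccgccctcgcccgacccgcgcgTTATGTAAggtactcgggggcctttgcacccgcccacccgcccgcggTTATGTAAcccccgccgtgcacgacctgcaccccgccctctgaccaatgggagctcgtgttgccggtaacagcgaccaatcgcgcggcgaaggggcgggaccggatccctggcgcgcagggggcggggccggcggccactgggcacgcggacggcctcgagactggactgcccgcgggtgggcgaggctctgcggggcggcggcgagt
Tef: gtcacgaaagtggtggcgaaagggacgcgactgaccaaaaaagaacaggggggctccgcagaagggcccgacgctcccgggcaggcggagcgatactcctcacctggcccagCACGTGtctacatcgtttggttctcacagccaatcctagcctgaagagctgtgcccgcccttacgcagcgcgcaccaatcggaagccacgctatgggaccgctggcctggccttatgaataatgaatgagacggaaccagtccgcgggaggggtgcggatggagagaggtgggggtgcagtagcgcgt
Bhlhe41: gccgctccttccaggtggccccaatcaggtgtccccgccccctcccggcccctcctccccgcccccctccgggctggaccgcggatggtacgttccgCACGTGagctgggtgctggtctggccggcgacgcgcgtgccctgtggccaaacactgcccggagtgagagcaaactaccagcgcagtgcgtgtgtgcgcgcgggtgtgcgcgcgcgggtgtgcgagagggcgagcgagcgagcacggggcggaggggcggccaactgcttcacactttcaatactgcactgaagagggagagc

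Both strands of each window were searched, and none of the motifs contains another. The ROR element letters stood in 0.219% of all 32851 windows, and Arntl was the 1 clock gene with them. The D-box letters stood in 1.056% of windows and were found in Per3, which held 2 matches. The E-box letters stood in 7.15% of all windows, in the window of 10.8% of the tested genes that had one, and in 5 of the 19 clock genes with one, Per1, Cry1, Ciart, Tef and Bhlhe41, of which Tef and Bhlhe41 were called and the other 3 were not. The letters of the cAMP response element, TGACGTCA, stood in 1.79% of windows and in Hlf. These matches describe the letters of the windows and are not measurements of binding.

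Across the 24 genes of the 4 clock lists, 10 were called higher in US lungs, 2 lower and 12 were not called, against 2.09% of all genes called. The US libraries lay all above the D libraries for 11 of the 24 and all below for 2, against 9.79% and 8.87% of all genes. With the trends removed the 12 calls held and Clock joined them, where 2.35% of all genes were called, 1.03% higher and 1.32% lower. Against the D libraries of days 1 and 28 the 12 held and Cry1 joined, where 1.01% were called, 0.609% higher and 0.402% lower. Without 1 library at a time the 2 lower calls were made in all 6 fits, and the higher calls numbered 7 in 4 fits, 9 without D replicate 3 and 12 without US replicate 2. The median log2 fold change of the 24 was 0.27, beside 0.01 over all genes tested.

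Among the activators, Npas2 (chr1:39193731-39363236), which pairs with BMAL1 in place of CLOCK, showed the largest difference of the clock genes. It stood at 1.51, 2.46 and 1.26 CPM in US lungs against 10.48, 7.80 and 16.8 CPM in D lungs. Every US library lay below every D library, and D replicate 3 was the highest of the 6. The means were 1.75 ± 0.632 CPM in US lungs and 11.7 ± 4.62 CPM in D lungs (SD, n = 3 each), 6.88-fold lower in US (log2 -2.78 ± 0.32 SE, edgeR adjusted p = 2.5e-05). The value was -2.86 with the trends removed and -3.17 against the D libraries of days 1 and 28.

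Arntl (chr7:113207465-113314122), which encodes BMAL1, had 10.2, 12.1 and 6.71 CPM in US lungs against 26.1, 27.9 and 45.6 CPM in D lungs. The groups did not overlap, and D replicate 3 held the highest level of both activators. Arntl was 3.51-fold lower in US lungs (log2 -1.81 ± 0.28 SE, edgeR adjusted p = 0.000666). Clock, the usual partner of BMAL1, had 89.5, 70.7 and 87.9 CPM in US lungs against 61.8, 80.6 and 101.4 CPM in D lungs, ranges that overlapped, with a log2 fold change of 0.00 ± 0.17 (adjusted p = 0.99). With the trends removed Clock was at -0.30 (adjusted p = 0.0492), which was past the threshold. Rora, which activates through the ROR element, had a log2 fold change of 0.30 and was not called, nor were Arntl2 at -0.28 and Nfil3, a repressor at D-boxes, at -0.66.

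Of the Per genes, the negative limb of the loop, Per2 and Per3 were higher in US lungs. Per2 (chr1:91415982-91459324) had 51.8, 31.8 and 73.7 CPM in US lungs against 12.4, 12.1 and 10.5 CPM in D lungs. The D libraries lay close together and the US libraries all stood above them, with US replicate 2 the lowest of them. The difference was 4.44-fold (log2 2.15 ± 0.34 SE, edgeR adjusted p = 0.00108). Per2 was higher by 1.18 on the log2 scale against the D libraries of days 1 and 28 (adjusted p = 0.0259). Per3 (chr4:151003652-151044665) had 92.2, 71.7 and 101.3 CPM in US lungs against 37.2, 35.2 and 18.5 CPM in D lungs and was 2.87-fold higher (log2 1.52 ± 0.21 SE, adjusted p = 0.000261). Per1, whose transcription also answers to glucocorticoids and cAMP, had 134.2, 58.9 and 119.1 CPM in US lungs against 45.4, 50.4 and 52.3 CPM in D lungs. Its groups did not overlap, but US replicate 2 lay near the D libraries, and the log2 fold change of 1.06 ± 0.44 did not pass the test (adjusted p = 0.132).

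Of the Cry genes, whose products are the main repressors of CLOCK and BMAL1, Cry2 was higher and Cry1 was not called. Cry2 had 81.7, 80.7 and 92.4 CPM in US lungs against 63.5, 48.4 and 53.1 CPM in D lungs, 1.52-fold higher (log2 0.60 ± 0.16 SE, edgeR adjusted p = 0.0455). It was called in 2 of the 6 fits without a library, with an adjusted p of up to 0.289. Cry1 had 13.3, 12.1 and 18.1 CPM in US lungs against 13.0, 11.6 and 17.2 CPM in D lungs, and its groups overlapped throughout (log2 0.04). Against the D libraries of days 1 and 28, Cry1 was lower in US lungs (log2 -0.85, adjusted p = 0.00927). Other repressors and regulators of their stability, Ciart at 0.25, Fbxl21 at 0.25, Csnk1d at -0.01 and Csnk1e at -0.06, were not called.

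All 3 PAR bZIP factors, which carry the rhythm to output genes through D-boxes, were higher in US lungs. Dbp (chr7:45705088-45710155) had 114.9, 102.6 and 131.9 CPM in US lungs against 34.3, 30.8 and 8.90 CPM in D lungs. The US libraries were alike, and D replicate 3 was the lowest of the 6. The difference was 4.65-fold (log2 2.22 ± 0.50 SE, edgeR adjusted p = 0.029), and leaving out single libraries raised the adjusted p to as much as 0.174. The log2 fold change of Dbp was 3.69 against the D libraries of days 1 and 28 (adjusted p = 2.64e-06). Tef (chr15:81802421-81826861) had 389, 305 and 446 CPM in US lungs against 157, 147 and 127.99 CPM in D lungs, 2.60-fold higher (log2 1.38 ± 0.18 SE, adjusted p = 7.44e-05). Hlf (chr11:90336536-90390895) had 46.1, 31.0 and 54.0 CPM in US lungs against 15.2, 13.7 and 14.3 CPM in D lungs, 2.99-fold higher (log2 1.58 ± 0.19 SE, adjusted p = 2.5e-05). For each of the 3 genes the groups lay well apart.

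The REV-ERB and DEC repressors were also all higher in US lungs. Nr1d1 (chr11:98767932-98775333), the repressor of Arntl and Npas2, had 295, 256 and 305 CPM in US lungs against 145, 108.9 and 67.9 CPM in D lungs, 2.61-fold higher (log2 1.39 ± 0.36 SE, edgeR adjusted p = 0.0412). Its call held in 1 of the 6 fits without a library, with an adjusted p of up to 0.252. Its relative Nr1d2 (chr14:18204054-18239127) had 238, 188 and 273 CPM in US lungs against 89.6, 115.96 and 58.7 CPM in D lungs, 2.60-fold higher (log2 1.38 ± 0.21 SE, adjusted p = 0.000448). D replicate 3 was the lowest of the 6 libraries for both. The log2 fold changes against the D libraries of days 1 and 28 were 2.78 for Nr1d1 and 2.11 for Nr1d2.

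Bhlhe40 (DEC1), which competes for E-boxes, had 90.0, 106.4 and 103.8 CPM in US lungs against 59.6, 46.0 and 50.6 CPM in D lungs, 1.89-fold higher (log2 0.92 ± 0.16 SE, edgeR adjusted p = 0.0045). Bhlhe41 (DEC2) had 20.2, 25 and 33.8 CPM in US lungs against 9.72, 11.8 and 9.16 CPM in D lungs, 2.53-fold higher (log2 1.34 ± 0.20 SE, adjusted p = 0.000386). Neither pair of groups overlapped.

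**Figure D2:**
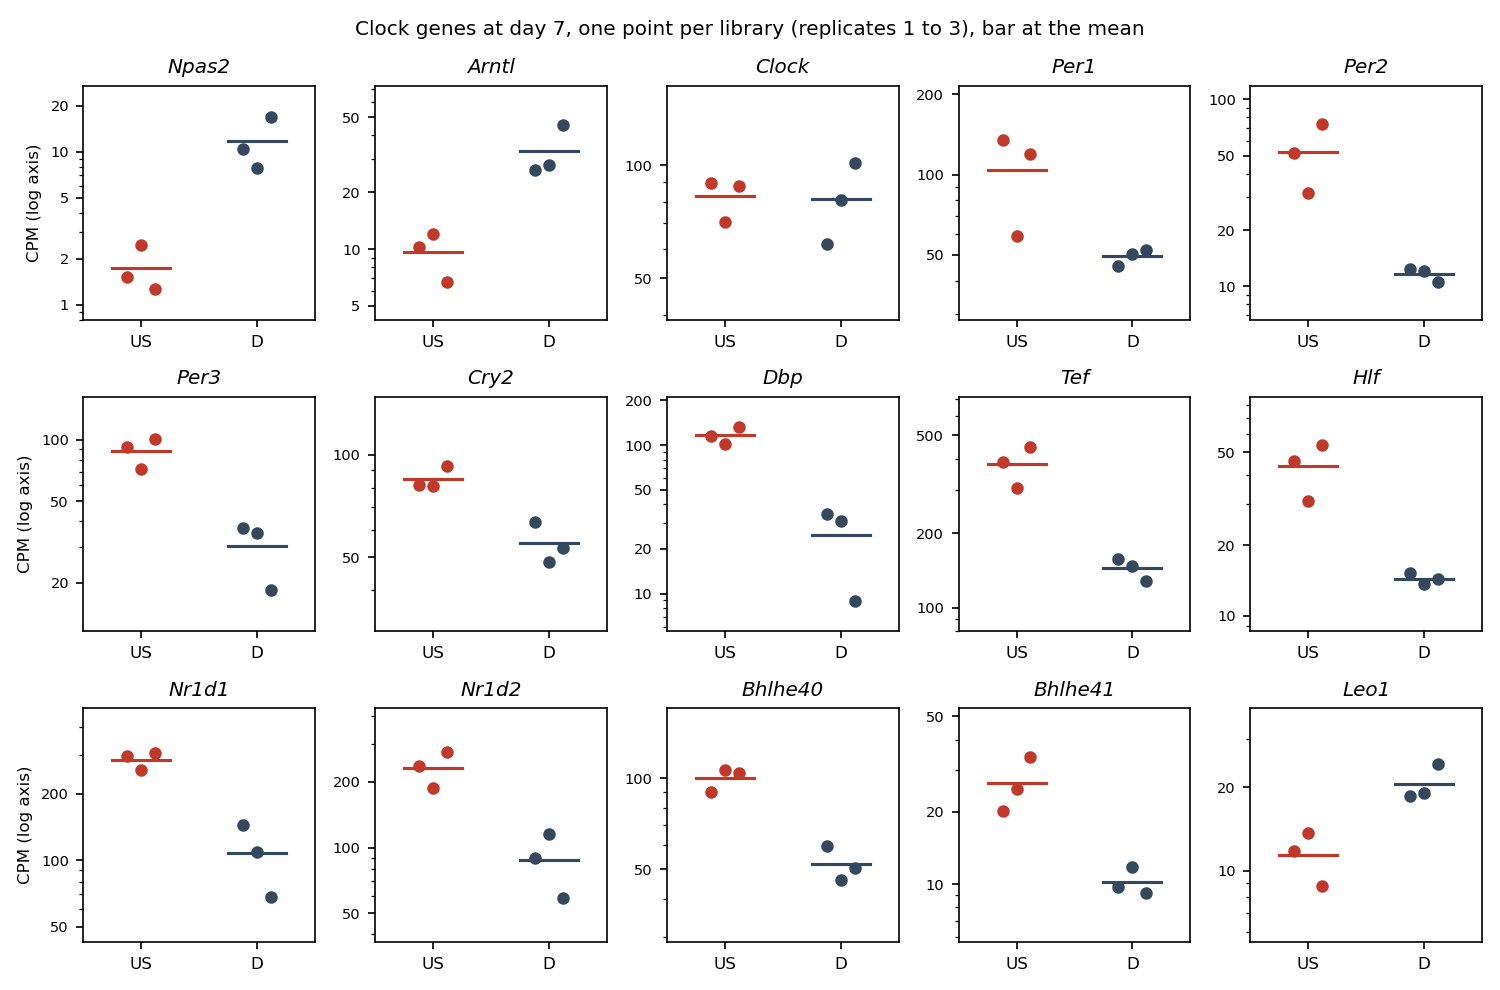
CPM (y axis, log scale) of 15 clock and clock-associated genes at day 7, with 1 point per library, US left of D, and a bar at the mean of each group. Npas2, Arntl and Leo1 lie lower in all 3 US libraries, Per1, Per2, Per3, Cry2, Dbp, Tef, Hlf, Nr1d1, Nr1d2, Bhlhe40 and Bhlhe41 lie higher in all 3, and Clock overlaps.

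Of 18 further genes known to follow the clock in mouse tissues, 1 was called higher and 2 lower. Over all genes 0.905% were called higher and 1.18% lower. Wee1, a cell cycle kinase gene driven through E-boxes, had 11.7, 7.61 and 13.9 CPM in US lungs against 3.76, 5.49 and 4.91 CPM in D lungs (log2 1.21 ± 0.22 SE, edgeR adjusted p = 0.00589). Leo1, which encodes a subunit of the PAF1 elongation complex, had 11.8, 13.7 and 8.79 CPM in US lungs against 18.6, 19.1 and 24.2 CPM in D lungs (log2 -0.88 ± 0.13 SE, adjusted p = 0.000407). Ypel2 had 21.6, 26.4 and 17.5 CPM in US lungs against 29.5, 28.2 and 33.3 CPM in D lungs (log2 -0.50, adjusted p = 0.0412). None of the 3 overlapped between the groups, and the median log2 fold change of the 18 was 0.07. Leo1 was called again against the D libraries of days 1 and 28, and Wee1 (log2 0.44, adjusted p = 0.289) and Ypel2 (log2 -0.39, adjusted p = 0.0942) were not.

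The clock genes of the other groups place these values. At day 7 Npas2 averaged 1.75 ± 0.632 CPM in US lungs, 10.2 ± 0.867 CPM in S lungs, 1.95 ± 0.256 CPM in L lungs and 11.7 ± 4.62 CPM in D lungs (SD, n = 3 each). Dbp averaged 116.5 ± 14.7 CPM in US lungs, 21.6 ± 5.61 CPM in S lungs, 145 ± 20.9 CPM in L lungs and 24.7 ± 13.8 CPM in D lungs. US and L lungs thus held low Npas2 and high Dbp, and S and D lungs the opposite. Arntl stood at 9.66 ± 2.73 CPM in US lungs, 33.2 ± 4.01 CPM in S lungs, 7.52 ± 1.92 CPM in L lungs and 33.2 ± 10.8 CPM in D lungs, in the same arrangement.

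Across days the levels of both treatments moved. Npas2 averaged 6.72 ± 2.65 CPM in US lungs and 10.3 ± 0.729 CPM in D lungs at day 1, and 25.4 ± 2.99 CPM in US lungs and 22.9 ± 2.20 CPM in D lungs at day 28. Nr1d1 averaged 115.9 CPM in US lungs and 115.5 CPM in D lungs at day 1, and 47.1 CPM in US lungs and 14.6 CPM in D lungs at day 28. The carrier lungs of day 7 were themselves unlike those of days 1 and 28 in 9 of the 24 clock genes, with 4 higher and 5 lower, where 8.89% of all genes were higher and 9.81% lower. Per2 of D lungs was lower at day 7 than at the other days (log2 -0.97 ± 0.31 SE, edgeR adjusted p = 0.0321) and Nr1d1 was higher (log2 1.39 ± 0.30 SE, adjusted p = 0.0244), while for Npas2 (log2 -0.39) and Arntl (log2 -0.48) the carrier lungs did not pass the test.

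The change of the US effect between days was tested directly. Between day 7 and day 1 it differed in 23 genes (0.136% of those tested, 0.0414% upward and 0.0947% downward), 3 of them clock genes. Npas2 was lower in US lungs by a further 2.22 at day 7 on the log2 scale (SE 0.43, edgeR adjusted p = 0.0321), Per3 was higher by a further 1.48 (SE 0.30, adjusted p = 0.0406) and Hlf by a further 1.36 (SE 0.26, adjusted p = 0.0321). Between day 7 and day 28 it also differed in 23 genes (0.136%, with 0.0473% upward and 0.0887% downward), 5 of them clock genes. These were Npas2 (log2 -2.94 ± 0.42 SE, adjusted p = 0.00168), Per2 (2.76 ± 0.48 SE, adjusted p = 0.0126), Per3 (1.69 ± 0.31 SE, adjusted p = 0.0143), Tef (1.41 ± 0.25 SE, adjusted p = 0.0126) and Hlf (1.56 ± 0.27 SE, adjusted p = 0.0126). For Arntl and Dbp the difference between days did not pass the test at either step. For day 1 the count of genes was 0 without US replicate 1 or 3 of day 7 or D replicate 1 or 2 of day 1, and at most 44, without US replicate 2 of day 7. For day 28 it lay between 1, without US replicate 3 of day 7, and 143, without D replicate 3 of day 7.

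**Figure D3:**
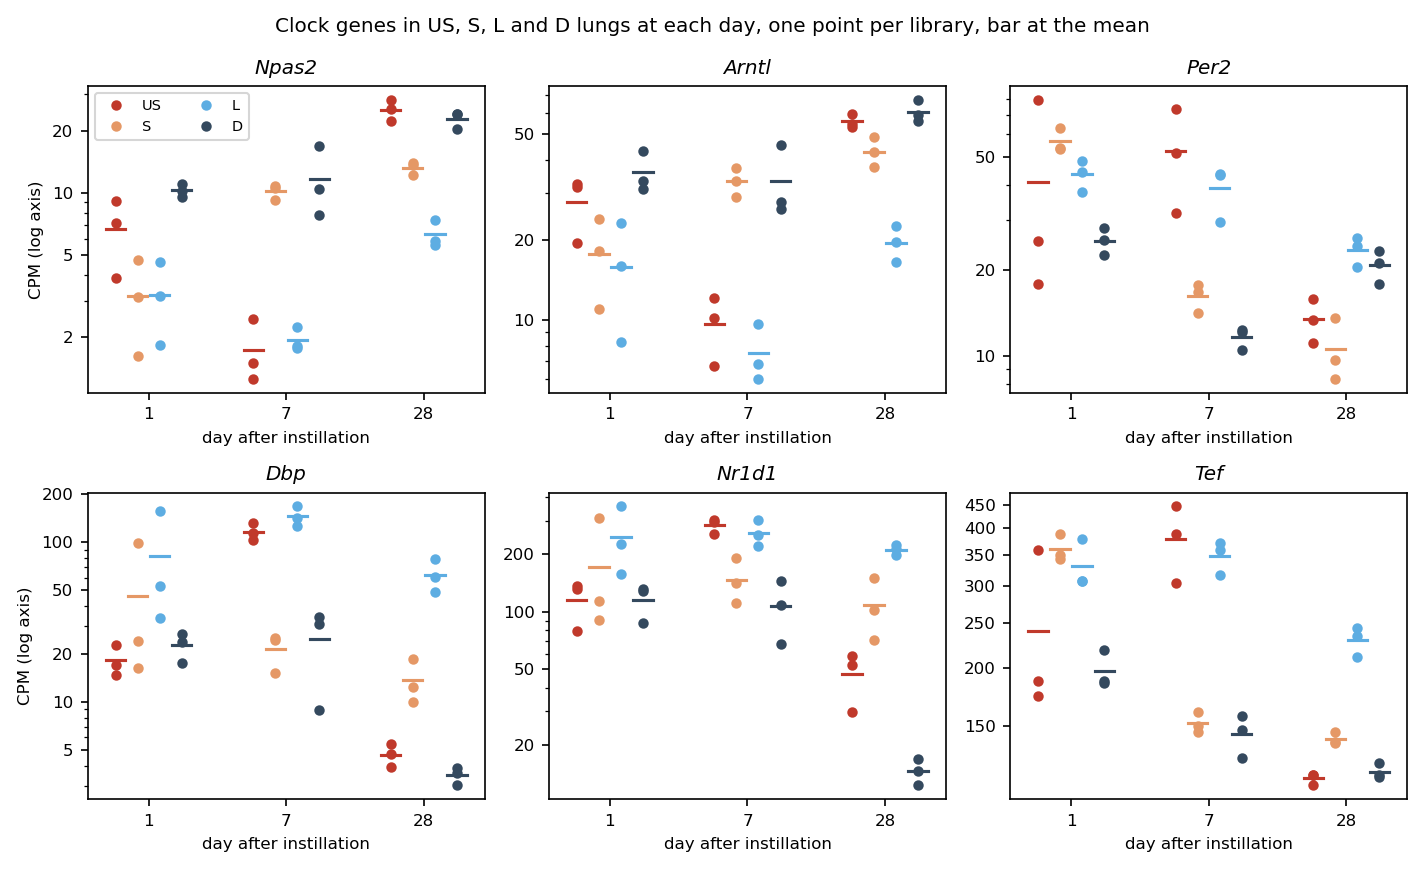
CPM (y axis, log scale) of Npas2, Arntl, Per2, Dbp, Nr1d1 and Tef in US, S, L and D lungs at days 1, 7 and 28, with 1 point per library and a bar at the mean of each group. At day 7 US and L lungs lie together, with Npas2 near 1.75 and 1.95 CPM, apart from S and D lungs at 10.2 and 11.7 CPM.

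At day 7 US and L lungs differed in 1 gene (0.00592% of those tested) and US and S lungs in 24 (0.142%). The count between US and L was 862 without L replicate 3, 5 without US replicate 2 and 3 without L replicate 2. That between US and S was 75 without US replicate 2, 11 without US replicate 1, 12 without US replicate 3 or S replicate 2 and 14 without S replicate 3. Set against S lungs, US lungs were called in 8 clock genes, 6 higher and 2 lower, where 0.0769% of all genes were higher and 0.0651% lower. Hlf (log2 1.71 ± 0.19 SE, edgeR adjusted p = 7.52e-06), Tef (1.35, adjusted p = 7.82e-05), Per3 (1.52, adjusted p = 0.000235), Nr1d2 (1.40, adjusted p = 0.000554), Per2 (1.72, adjusted p = 0.0143) and Dbp (2.46, adjusted p = 0.0247) were higher in US lungs. Npas2 (-2.54, adjusted p = 5.06e-05) and Arntl (-1.76, adjusted p = 0.00129) were lower. This comparison uses the same US libraries as that with D but no D library.

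Set against L lungs, 0 of the 24 clock genes were called by edgeR, and their lowest adjusted p was 0.343. The estimates for US over L were -0.18 ± 0.36 SE for Npas2, 0.36 ± 0.29 for Arntl, 0.44 ± 0.32 for Per2, -0.33 ± 0.47 for Dbp, 0.12 ± 0.17 for Tef and -0.01 ± 0.18 for Hlf, all on the log2 scale. At an unadjusted p of 0.05 the comparison of US with L held 2534 genes, and DESeq2 called 3.

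US lungs also differed from L or S lungs in a few genes outside the clock. Mmp12, the macrophage elastase, was the 1 gene called between US and L lungs, with 5.08, 5.49 and 8.21 CPM in US lungs against 211, 54.8 and 121.8 CPM in L lungs (log2 -4.38, edgeR adjusted p = 8.48e-06). Every L library lay far above the US libraries, which stood close to the 4.05, 4.84 and 7.29 CPM of D lungs (US over D 0.19, adjusted p = 0.835). Cxcl5, a neutrophil chemokine, had 0.183, 0.629 and 1.07 CPM in US lungs against 2.98, 16.7 and 17.5 CPM in S lungs (log2 -4.30, adjusted p = 0.00759). Its US range overlapped the 0.637, 0.807 and 0.658 CPM of D lungs (US over D -0.19, adjusted p = 0.916).

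Outside the clock, 7 genes were called whichever library was left out, of which Nt5e and Dnah7b were named after their values had been seen. Avpr1a (chr10:122448499-122453453), the vasopressin V1a receptor, had 0.504, 0.572 and 0.534 CPM in US lungs against 2.43, 2.21 and 3.64 CPM in D lungs (log2 -2.38 ± 0.34 SE, edgeR adjusted p = 0.000279). It had 3.03, 3.34 and 4.06 CPM in S lungs and 0.963, 0.84 and 0.963 CPM in L lungs of day 7, and so followed the same arrangement as Npas2. Rasl11a, a Ras-like GTPase gene, had 9.34, 11 and 6.03 CPM in US lungs against 27.2, 27.9 and 30.4 CPM in D lungs (log2 -1.73 ± 0.25 SE, adjusted p = 0.000292). Ccnjl, a cyclin J-like gene, had 2.15, 2.63 and 1.51 CPM in US lungs against 6.66, 5.00 and 5.67 CPM in D lungs (log2 -1.49 ± 0.21 SE, adjusted p = 0.000231). In each of these 3 genes the groups did not overlap.

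Ccdc184 had 1.97, 2.52 and 2.09 CPM in US lungs against 7.64, 5.86 and 5.21 CPM in D lungs (log2 -1.53 ± 0.25 SE, edgeR adjusted p = 0.00119), and -0.70 against the D libraries of days 1 and 28 (adjusted p = 0.136). Rasd2, a small GTPase gene of the Dexras family, had 9.21, 6.41 and 12.7 CPM in US lungs against 2.89, 3.5 and 3.39 CPM in D lungs (log2 1.51 ± 0.25 SE, adjusted p = 0.00143). Nt5e, which encodes the CD73 ectonucleotidase that makes adenosine, had 164, 141 and 169 CPM in US lungs against 92.3, 90.5 and 104.3 CPM in D lungs (log2 0.70 ± 0.11 SE, adjusted p = 0.00119). Dnah7b, an axonemal dynein heavy chain gene, had 9.07, 10.9 and 12.2 CPM in US lungs against 5.61, 6.02 and 6.12 CPM in D lungs (log2 0.83 ± 0.14 SE, adjusted p = 0.00123). The last is a member of a family of near-identical copies, so reads of Dnah7b may be shared with them. Its log2 fold change was 0.48 with the trends removed (adjusted p = 0.086).

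The largest negative changes were of another kind. Rpph1, the RNA of ribonuclease P, had 0.366, 0.229 and 0 CPM in US lungs against 31.0, 15.4 and 0.253 CPM in D lungs (log2 -6.27 ± 1.3 SE, edgeR adjusted p = 0.0168). Rmrp, the RNA of the related ribonuclease MRP, had 0.458, 0.172 and 0 CPM in US lungs against 4.63, 2.90 and 0.152 CPM in D lungs (log2 -3.56, adjusted p = 0.0412). Both are short RNAs without a poly(A) tail that poly-dT capture should largely leave behind. Both were high in D replicates 1 and 2, the carrier libraries that stood apart in short genes. In D replicate 3 both lay within the US range, so the groups overlapped in both genes. The cause of these differences was not tested. Rpph1 was still called with the trends removed (log2 -4.89, adjusted p = 0.0399) and Rmrp was not (log2 -2.38, adjusted p = 0.125). Against the D libraries of days 1 and 28 neither was called, with Rpph1 at -1.5 (adjusted p = 0.748) and Rmrp at -0.16 (adjusted p = 0.971).

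Bpifa1 (chr2:154142880-154149219), a secreted defence protein of airway epithelium, had 1.83, 1.6 and 1.22 CPM in US lungs against 17.0, 25.4 and 160 CPM in D lungs (log2 -5.45 ± 1.3 SE, edgeR adjusted p = 0.0367). The D libraries of day 1 had 0.557, 0.43 and 1.73 CPM and those of day 28 had 7.44, 0.228 and 0.198 CPM. Set against those 6 libraries, US lungs had a log2 fold change of -0.03 (adjusted p = 0.996). Spon2, a secreted matrix protein, had 19.5, 35.4 and 9.13 CPM in US lungs against 87.3, 56.0 and 113.7 CPM in D lungs (log2 -2.04 ± 0.38 SE, adjusted p = 0.00589), and this difference was also there against the D libraries of days 1 and 28 (log2 -1.95, adjusted p = 0.00251). L lungs of day 7 had 18.1, 18.5 and 21.1 CPM of Spon2, within the US range.

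Other large decreases were in Scand1, with 0.183, 0.572 and 0.389 CPM in US lungs against 5.21, 1.77 and 1.16 CPM in D lungs (log2 -2.86, edgeR adjusted p = 0.0385), and Romo1, a small mitochondrial membrane protein gene, with 4.35, 7.09 and 4.28 CPM in US lungs against 27.0, 18.3 and 8.80 CPM in D lungs (log2 -1.82, adjusted p = 0.0413). Bola1 (-1.86) and Ppp1r35 (-1.87) were of similar size. None of these 4 was called against the D libraries of days 1 and 28, with Scand1 at -0.63 (adjusted p = 0.801), Romo1 at -0.41 (adjusted p = 0.769), Bola1 at -0.49 (adjusted p = 0.688) and Ppp1r35 at -0.42 (adjusted p = 0.754). In Scand1 and Romo1 the order of the D libraries was that of the short genes, with replicate 1 the highest. The part of the length trend in these values was not tested. With the trends removed Bola1 was at -1.415 and was still called (edgeR adjusted p = 0.0258).

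Among the largest increases were Lrrc31, an epithelial gene, with 1.47, 0.801 and 2.87 CPM in US lungs against 0.289, 0.269 and 0.708 CPM in D lungs (log2 1.98 ± 0.40 SE, edgeR adjusted p = 0.0157), and Prrg4, with 3.25, 1.6 and 4.96 CPM in US lungs against 0.637, 0.861 and 1.57 CPM in D lungs (log2 1.65, adjusted p = 0.0205). Tnfsf15, a TNF superfamily ligand, had 4.81, 1.37 and 3.21 CPM in US lungs against 0.926, 1.18 and 1.16 CPM in D lungs (log2 1.5, adjusted p = 0.0417). In all of these US replicate 2 lay nearest to the D libraries. None of the 3 was called against the D libraries of days 1 and 28, with values of 0.61 for Lrrc31 (adjusted p = 0.407), 0.27 for Prrg4 (adjusted p = 0.769) and 0.83 for Tnfsf15 (adjusted p = 0.231).

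Of 29 motile cilium genes tested, 9 were called higher in US lungs and 0 lower, where 0.905% of all genes were higher and 1.18% lower, with a median log2 fold change of 0.46. Cfap43, an axonemal gene, had 95.3, 101.6 and 106.3 CPM in US lungs against 67.8, 69.0 and 80.7 CPM in D lungs (log2 0.46 ± 0.09 SE, edgeR adjusted p = 0.0073). Cfap44 had 32.6, 21.9 and 46.0 CPM in US lungs against 9.90, 13.6 and 19.3 CPM in D lungs (log2 1.21 ± 0.26 SE, adjusted p = 0.023). Sec14l3, a lipid transfer protein gene of ciliated cells, had 1617, 1136 and 1871 CPM in US lungs against 738, 859 and 1210 CPM in D lungs (log2 0.70 ± 0.15 SE, adjusted p = 0.0232), with US replicate 2 below D replicate 3.

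Dnah9, an outer arm dynein gene, had 21.4, 23.8 and 35.3 CPM in US lungs against 14.2, 12.1 and 20.1 CPM in D lungs (log2 0.78, edgeR adjusted p = 0.0189). Dnah9 was not called with the trends removed (log2 0.44, adjusted p = 0.0739) or against the D libraries of days 1 and 28 (log2 0.42, adjusted p = 0.148). The other 5 called members were Cfap61, Hydin, Cfap54, Dnah12 and Spef2, between 0.65 and 0.83, and are named here as the rest of the count. Foxj1, the transcription factor that defines motile ciliated cells, had 35.5, 50.0 and 60.9 CPM in US lungs against 47.5, 44.1 and 47.4 CPM in D lungs (log2 0.05, adjusted p = 0.909). Tppp3, a short gene of the same cells, was at -0.68 (adjusted p = 0.19). The summed level of the list was 2548, 2338 and 3115 CPM in US lungs and 1839, 1949 and 2303 CPM in D lungs.

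The cilium count also turned on single libraries. It was 0 without D replicate 1, 1 without D replicate 2, 16 without D replicate 3, 4 without US replicate 1, 16 without US replicate 2 and 0 without US replicate 3. The calls followed transcript length. Among the 16 members longer than the median of all tested genes 8 were called, and among the 13 shorter ones 1. The Spearman correlation of length with log2 fold change over the 29 genes was 0.77, and 0.42 over all 16835 tested genes with a length. With the trends removed the correlation over the 29 was 0.27 and 3 members were called higher, Cfap44, Sec14l3 and Cfap61, where 1.03% of all genes were. Cfap43 was then at 0.24 (adjusted p = 0.193). Against the D libraries of days 1 and 28 only Cfap43 was called higher, of the 29, where 0.609% of all genes were, with Cfap44 at 0.39 (adjusted p = 0.493) and Sec14l3 at 0.16 (adjusted p = 0.686). In the list of genes that build multiciliated cells, 1 of 12 was called higher in US over D, where 0.905% of all genes were. It was Myb, which acts early in that programme, with 19.4, 21.9 and 32.8 CPM in US lungs against 15.2, 16.7 and 14.7 CPM in D lungs (log2 0.65, edgeR adjusted p = 0.0475). Myb was not called with the trends removed (adjusted p = 0.0915).

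**Figure D4:**
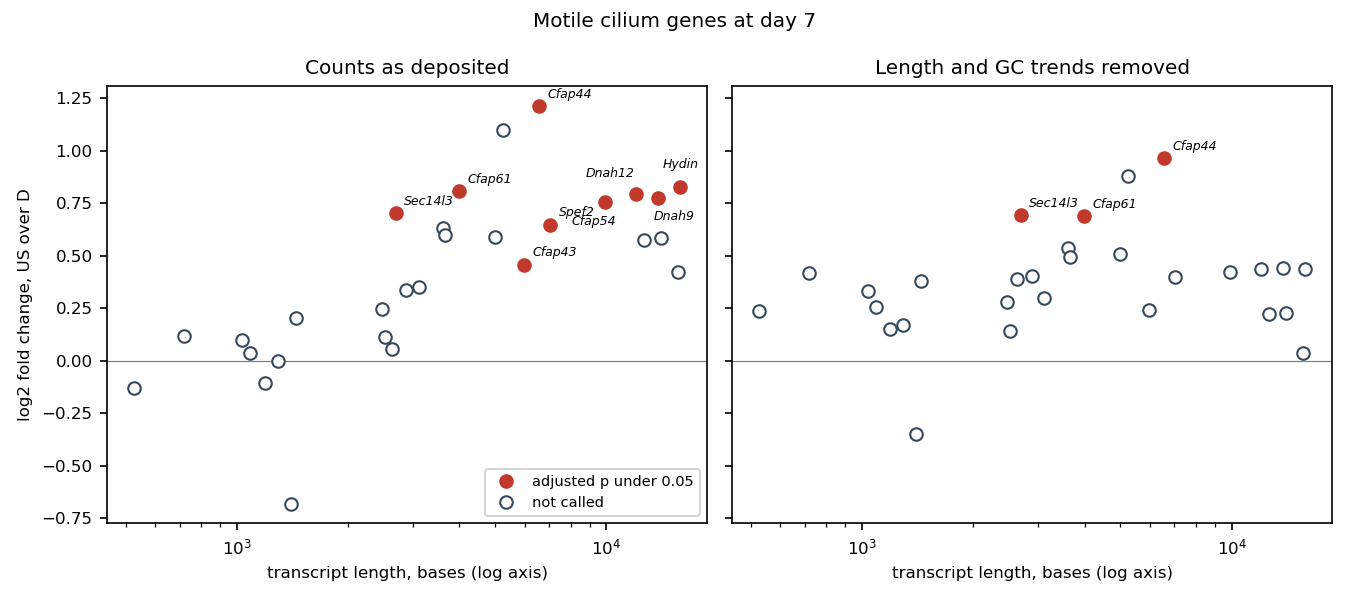
Log2 fold change of US over D at day 7 (y axis) of 29 motile cilium genes against transcript length in bases (x axis, log scale), with counts as deposited on the left and with the length and GC trends removed on the right. Filled points passed an adjusted p of 0.05: 9 on the left, 8 of them in genes longer than the median, and 3 on the right.

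Of 27 genes of endothelial junctions and quiescence, 3 were called lower in US lungs and 0 higher, where 1.18% of all genes were lower, with a median of -0.08. Klf2, the flow-induced transcription factor of quiescent endothelium, had 81.3, 75.1 and 53.8 CPM in US lungs against 282, 229 and 137.9 CPM in D lungs (log2 -1.66 ± 0.31 SE, edgeR adjusted p = 0.0073). Egfl7, a secreted endothelial factor, had 314, 388 and 276 CPM in US lungs against 852, 597 and 469 CPM in D lungs (log2 -1.0 ± 0.23 SE, adjusted p = 0.0309). Cldn5, the endothelial tight junction claudin, had 162, 246 and 138.2 CPM in US lungs against 465, 330 and 297 CPM in D lungs (log2 -1.03 ± 0.25 SE, adjusted p = 0.037). In each the groups did not overlap and D replicate 1 was the highest.

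With the trends removed these 3 were called again, Klf2 at -1.18 (adjusted p = 0.00837), but against the D libraries of days 1 and 28 none was, with Klf2 at -0.45 (adjusted p = 0.543). Of the 27 genes, 0 were lower without D replicate 1 or US replicate 3, 1 without D replicate 2 or US replicate 1, and 4 without D replicate 3 or US replicate 2. The summed level of the 27 genes lay between 7678 and 7988 CPM in US lungs and between 7602 and 8852 CPM in D lungs. The lists of general capillary (12 tested), aerocyte (11), large vessel (16) and lymphatic (7) endothelium held 0 called genes each.

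Single genes of smooth muscle, of pericytes and of BMP signalling were also lower, where 1.18% of all genes were. With 1 call in so short a list, the call is not read as a result about the list. Cnn1, the smooth muscle calponin, had 11.6, 13.8 and 13.9 CPM in US lungs against 21.4, 20.0 and 26.6 CPM in D lungs (log2 -0.81, edgeR adjusted p = 0.0382), the 1 call among 14 smooth muscle genes. Kcnj8, a potassium channel gene of pericytes, had 6.96, 7.04 and 6.51 CPM in US lungs against 9.96, 9.79 and 9.97 CPM in D lungs (log2 -0.56, adjusted p = 0.0412), the 1 call among 10 pericyte genes. Id3, a target of BMP signalling, had 75.8, 86.7 and 77.5 CPM in US lungs against 200, 159 and 124.7 CPM in D lungs (log2 -1.04, adjusted p = 0.0417). All 3 were without overlap, and none was called against the D libraries of days 1 and 28. Spon2, described above, was the 1 call among 36 extracellular matrix genes, and 0 of 18 fibroblast genes were called.

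Genes of fat cells and of the secretory airway were low in US lungs as lists but seldom called. Of 10 fat cell genes tested 1 was lower, where 1.18% of all genes were. It was Adig, which acts in adipocyte formation, with 0.458, 0.229 and 0.340 CPM in US lungs against 1.04, 0.753 and 1.16 CPM in D lungs (log2 -1.51 ± 0.39 SE, edgeR adjusted p = 0.0412). Adig was not called with the trends removed (log2 -1.09, adjusted p = 0.103) or against the D libraries of days 1 and 28 (log2 -0.51, adjusted p = 0.636). Adipoq, the adiponectin gene, had 0.0916, 0.0572 and 0.826 CPM in US lungs against 1.74, 1.99 and 5.26 CPM in D lungs (log2 -3.17 ± 0.88, adjusted p = 0.0505). Cfd, the adipsin gene, had 1.05, 0.515 and 3.35 CPM in US lungs against 15.6, 6.13 and 21.4 CPM in D lungs (log2 -3.12, adjusted p = 0.0537). The list median was -1.11, and 0.14 against the D libraries of days 1 and 28. In D lungs 6 of the 10 were higher at day 7 than at days 1 and 28, where 8.89% of all genes were.

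Of 17 secretory airway genes 1 was lower, Bpifa1, where 1.18% of all genes were, and the median was -0.58. Reg3g, an antimicrobial lectin gene, had 1.47, 1.09 and 0.535 CPM in US lungs against 10.8, 5.70 and 42.9 CPM in D lungs (log2 -4.27, edgeR adjusted p = 0.0583), and Scgb3a1, a secretoglobin gene, had 29.4, 33.0 and 17.7 CPM in US lungs against 95.1, 65.0 and 169 CPM in D lungs (log2 -2.06, adjusted p = 0.0867). D replicate 3 was the highest library for Bpifa1, Reg3g and Scgb3a1. Against the D libraries of days 1 and 28 the list median was -0.02, and 8 of the 17 were higher in D lungs at day 7 than at the other days, where 8.89% of all genes were. The summed level of the 17 was 26770 to 39860 CPM in US lungs and 34680 to 47240 CPM in D lungs, ranges that overlapped.

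The large families of oxidative phosphorylation and ribosomal protein genes, which are short, were lower as lists with few calls. Over all genes 1.18% were called lower. Of 48 nuclear genes of oxidative phosphorylation 2 were called lower, Uqcrq of complex III, with 12.5, 18.0 and 13.5 CPM in US lungs against 56.8, 36.7 and 24.9 CPM in D lungs (log2 -1.46, edgeR adjusted p = 0.042), and Ndufs7 of complex I, with 20.2, 28.7 and 21.4 CPM in US lungs against 65.2, 44.6 and 34.2 CPM in D lungs (log2 -1.06, adjusted p = 0.0464). The list median was -0.38, -0.07 with the trends removed and 0.02 against the D libraries of days 1 and 28. The calls numbered 27 without D replicate 3, 33 without US replicate 2 and 0 without any other single library. Of 59 cytosolic ribosomal protein genes 0 were called, and the medians were -0.36, -0.02 and 0.16 in the same order. Uqcrq (log2 -0.29) and Ndufs7 (log2 -0.12) were not called against the D libraries of days 1 and 28. In D lungs 36 of the 48 and 49 of the 59 were higher at day 7 than at days 1 and 28, where 8.89% of all genes were. That comparison held 3161 calls, but 144 with the trends removed and 4 without D replicate 1.

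Lists of inflammation held few calls at day 7. Over all genes 2.09% were called, so lists of this length would hold few calls at that share as well. Of 17 neutrophil genes, 11 neutrophil chemokines and acute cytokines, 13 inflammatory CC chemokines, 19 genes of monocytes and interstitial macrophages, 21 alveolar macrophage and 20 lipid-laden macrophage genes, 0 were called in any list. With the trends removed 1 of the 21 alveolar macrophage genes was called higher, where 1.03% of all genes were. Against the D libraries of days 1 and 28 it was again 1, where 0.609% were. The acute phase and mucosal list had 1 call of 16, Hcar2, a receptor for hydroxycarboxylic acids on neutrophils and macrophages, with 8.47, 10.2 and 11.5 CPM in US lungs against 3.01, 4.36 and 5.36 CPM in D lungs (log2 1.22 ± 0.32 SE, edgeR adjusted p = 0.0439), and 0.80 against the D libraries of days 1 and 28 (adjusted p = 0.161). The neutrophil list had a median of 0.42 and the alveolar macrophage list one of 0.35, with 6 of 21 members above all D libraries where 9.79% of all genes were.

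Single members of these lists were high in some US libraries without passing the test. Saa3, an acute phase gene, had 1.47, 5.55 and 26.1 CPM in US lungs against 1.22, 1.08 and 1.72 CPM in D lungs (log2 3.03 ± 1.25, edgeR adjusted p = 0.133), with US replicate 3 far above the rest. Chil3, a chitinase-like gene of alveolar macrophages, had 1137, 1084 and 2323 CPM in US lungs against 675, 1169 and 1199 CPM in D lungs (log2 0.56, adjusted p = 0.194). Gpnmb, a gene of lipid-laden macrophages, had 31.9, 29.2 and 66.7 CPM in US lungs against 17.8, 19.9 and 25 CPM in D lungs (log2 1.01, adjusted p = 0.154). US replicate 3 was the highest library for all 3. Tnf, the inflammatory cytokine, stood at 0.962, 1.55 and 1.02 CPM in US lungs against 0.116, 0.592 and 0.354 CPM in D lungs, without overlap (log2 1.66, adjusted p = 0.0608), and is named after its values were seen.

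Of 17 alveolar type 2 genes 0 were called, and their summed level was 37120 to 43270 CPM in US lungs and 41460 to 44330 CPM in D lungs. Over all genes 0.905% were called higher and 1.18% lower. Of 14 alveolar type 1 genes 1 was higher, Col4a3, a chain of basement membrane collagen, with 428, 210 and 472 CPM in US lungs against 144, 149 and 287 CPM in D lungs (log2 0.92, edgeR adjusted p = 0.0466). Pfkfb3, a glycolytic regulator, was the 1 call among 17 hypoxia genes, with 192, 105.6 and 186 CPM in US lungs against 79.6, 80.9 and 88.3 CPM in D lungs (log2 0.94, adjusted p = 0.037). In both genes US replicate 2 was the lowest of its group, and in Col4a3 it lay below D replicate 3. Neither was called against the D libraries of days 1 and 28, with Col4a3 at 0.18 (adjusted p = 0.809) and Pfkfb3 at 0.69 (adjusted p = 0.069).

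Among the signalling lists, Cebpd, a factor induced by glucocorticoids and cytokines, had 11.9, 8.58 and 12.4 CPM in US lungs against 32.5, 35.8 and 20.8 CPM in D lungs (log2 -1.46, edgeR adjusted p = 0.0478), and Spry1, a brake on receptor tyrosine kinases, had 114.4, 131.4 and 109.7 CPM in US lungs against 165, 157 and 151 CPM in D lungs (log2 -0.44, adjusted p = 0.0295). Each was the 1 call of its list, where 1.18% of all genes were lower. Neither was called against the D libraries of days 1 and 28, with Cebpd at -0.18 and Spry1 at -0.11. In that comparison other members of the list of Spry1, MAPK phosphatases and signal brakes, were called, 3 of 18 higher and 2 lower. Over all genes 0.609% were higher and 0.402% lower there. Over the 61 lists, 41 of the 353 called genes were members of any list, and 41 of the lists held 0 called genes. The other 312 calls fell in none of them.

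**Figure D5:**
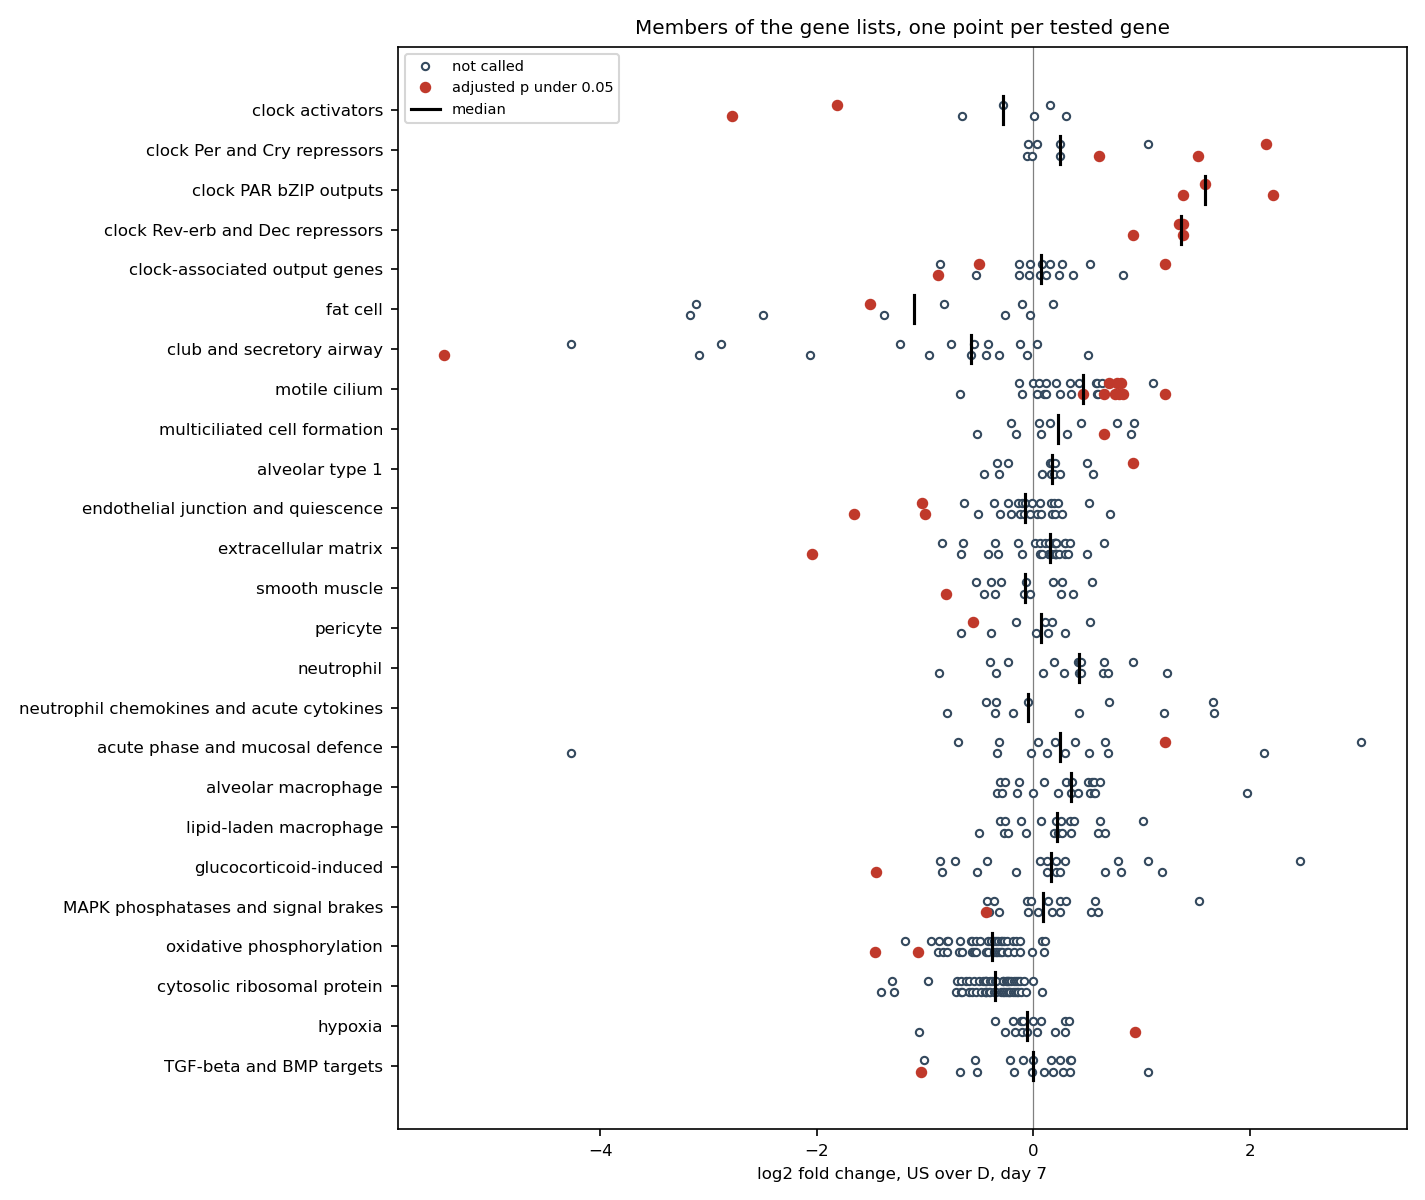
Log2 fold change of US over D at day 7 (x axis) of the tested members of 25 gene lists, 1 point per gene, filled where the adjusted p was under 0.05, with a tick at each list's median. The PAR bZIP and the Rev-erb and Dec lists are called in full, with medians of 1.58 and 1.36, while the ribosomal protein genes sit around -0.36 with 0 called.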

How the data were processed

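The deposited table of read counts per gene, which the authors made with STAR 2.5.1b and featureCounts 1.5.1 per the submitters' processing notes, was the basis of every test. The notes name the mouse build GRCm38 and a human build, GRCh37, with no role for either. Neither the gene annotation used nor the strand option of featureCounts is stated in those notes or the labels. The per-library transcript tables, which give FPKM, TPM and coverage values per the file headers, were deposited by the authors, and StringTie 1.3.3 is named in the notes. Only the TPM values entered an alternative, summed per gene, while FPKM and coverage signal were read as deposited and not tested. Per the labels' protocols, 1000 ng of total RNA with an integrity number of at least 8 went into stranded libraries made by poly-dT capture.

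Counts of all 36 libraries were fitted together, 1 mean per group, with edgeR 4.0.16 in R 4.3.3 (TMM scaling, filterByExpr, quasi-likelihood test, two-sided, Benjamini-Hochberg adjustment over the 16903 genes that passed). A gene was called at an adjusted p under 0.05, and higher or lower always refers to US over the other group. Totals were 16154696 to 23808264 in 35 libraries and 80566751 in S day 7 replicate 2, so genes of a few CPM carry more counting error than abundant ones. On simulated counts with the library sizes of these data the fit recovered 69% of genes changed by 1 on the log2 scale and 96.9% of those changed by 2. The simulation gave each gene a spread set by its level alone. It held no length or GC trend and no library that stood apart, so these shares do not measure the sensitivity of the real comparison. Per-library CPM values, their means and SDs are counts scaled to the total counts of the library, without the TMM factor. The log2 CPM deviations by length decile used TMM library sizes. Transcript length and GC content came from the GENCODE annotation of GRCm38 and covered 16835 of the tested genes. Their trends were removed per library by loess of span 0.5 in 2 rounds, an alternative chosen after seeing the data, as was the comparison against the D libraries of days 1 and 28.

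Groups came from the sample titles. The members and the 61 gene lists were chosen with earlier results of these data known, so the lists are described by counts and medians with no test. Named genes were the 12 largest and 12 smallest changes among non-overlapping calls of at least 1 CPM, the 10 of smallest p, up to 4 calls per list, the first 3 measured members of each list, and 5 at each end of the other comparisons. Genes outside this rule are said to have been named after their values were seen, or complete a count.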

Additional observations from a re-analysis of the deposited data

Results flagged for a closer look

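The effect of US over D was set against itself at the other days in 1 fit, and the genes below are those named by the rule whose effect at day 7 differed from that at day 1 or day 28 (edgeR, adjusted p under 0.05). All values are differences of 2 log2 fold changes, day 7 minus the other day. Each rests on the D libraries of day 7, of which replicates 1 and 2 stood apart from the other carrier libraries in short genes. The part of that in these values was not tested.

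Against day 1, the difference in the clock genes was -2.22 for Npas2, 1.48 for Per3 and 1.36 for Hlf, and it was -1.1 for the clock-associated Leo1. Among genes outside the clock it was -2.17 for Avpr1a, -1.71 for Rasl11a, -1.68 for Ccnjl, -1.9 for Ccdc184, -1.46 for the smooth muscle gene Cnn1 and -2.58 for Gm13889, a predicted gene. It was 1.82 for Htra4, a serine protease gene, and 0.845 for Fam214a. At day 1 itself the fold changes of US over D were 0.65 for Cnn1, 0.79 for Gm13889, -0.98 for Htra4 and -0.37 for Fam214a, opposite in sign to those of day 7, and none of these 4 passed the test at day 1.

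Against day 28, the difference was -2.94 for Npas2, 2.76 for Per2, 1.69 for Per3, 1.56 for Hlf and 1.41 for Tef. It was -2.42 for Avpr1a, -2.02 for Ccdc184, -2.38 for Gm13889, -1.95 for Foxs1, a forkhead factor gene of pericytes, and 1.04 for Dnah10, an axonemal dynein gene. At day 28 itself none of these 10 genes was called between US and D lungs.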

How the results depend on the processing

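Of 59 named genes called between US and D lungs, all 59 were called under DESeq2's size factors in edgeR, 54 in DESeq2, 56 with no filter, 50 with the length and GC trends removed, 44 with the replicate block, 29 and 27 in limma on log2 TPM with pseudocounts of 0.1 and 1, 21 against the D libraries of days 1 and 28, 18 in a fit of the 12 libraries of day 7 and 8 in a fit of the 6 libraries alone. The 353 calls between US and D became 240 with the replicate block, 1276 in DESeq2, 10 in the fit of the 6 libraries, 21 in that of the 12 (both have fewer degrees of freedom), about 1.3e+02 and exactly 142 in limma with pseudocounts of 1 and 0.1, and 171 against the D libraries of days 1 and 28. With no filter they became 415, of which 140 were higher and 275 lower, and in limma on TPM with a pseudocount of 1 they were 89 higher and 40 lower, against 153 and 200. The log2 fold change of Clock turned to -0.30 with the trends removed. In US over S the 24 calls became 91 in DESeq2, 9 in a fit of the groups compared and 38 with the trends removed, and in US over L the 1 call became 3 in DESeq2, 3 with no filter and 0 in a fit of the groups compared. The 23 differences between days 7 and 1 became 49 with no filter, 10 with the replicate block, 211 in DESeq2 and 74 with the trends removed, and the 23 between days 7 and 28 became 81, 13 and 208 under the first 3 of these. The 3161 genes of D at day 7 against the other days became 144 with the trends removed. Where not said, the cause was not tested.

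Leaving out 1 library gave 18 to 3035 calls between US and D (15 to 1614 with the trends removed, with 30, 37 and 1192 without D replicates 1, 2 and 3), 11 to 75 against S, 1 to 862 against L, 0 to 44 and 1 to 143 for the differences between days, and 4 to 4561 for D at day 7 against the other days, with 4 without D replicate 1 and 4561 without replicate 3. No label says that replicate numbers pair the samples. Deviations of same-numbered US and D libraries correlated at -0.139, 0.0476 and 0.371, and those of differently numbered libraries at between -0.477 and 0.466. With 3 libraries per group these values cannot decide whether a number marks a shared batch. The block fit is therefore not read as a test of weaker effects. With 3 libraries per group and 17 to 22 counts per CPM, changes in genes of about 1 CPM, such as Avpr1a, rest on few reads.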

Other observations

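Genes induced by glucocorticoids did not move as 1 block. Of 20 tested, 1 was lower in US lungs, Cebpd, where 1.18% of all genes were, and the list median was 0.17. Zbtb16, a strongly glucocorticoid-responsive transcription factor gene, had 31.6, 4.69 and 49.7 CPM in US lungs against 6.48, 3.55 and 5.57 CPM in D lungs (log2 2.46 ± 0.79 SE, edgeR adjusted p = 0.0717). Fkbp5, a chaperone gene of the same receptor, had 24.5, 17.3 and 44.2 CPM in US lungs against 14.4, 17.4 and 17.6 CPM in D lungs (log2 0.78, adjusted p = 0.323). Klf9, named after its values were seen, had 176, 74.8 and 204 CPM in US lungs against 55.3, 85.2 and 116.1 CPM in D lungs (log2 0.81, adjusted p = 0.073). US replicate 2 was the lowest US library in all 3, as it was for Per1.

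Of 22 immediate early genes, 0 were called between US and D lungs at day 7, while 8 were higher in D lungs at day 7 than at days 1 and 28, where 8.89% of all genes were. Of 20 heat shock genes, 0 were called between US and D lungs and 6 were lower in D lungs at day 7 than at the other days, where 9.81% of all genes were. Both counts belong to a comparison of carrier lungs that held 3161 calls, but 4 without D replicate 1 of day 7 and 144 with the trends removed. US lungs of day 7 also differed in both lists from the D libraries of days 1 and 28. In that comparison 4 immediate early genes were higher, where 0.609% of all genes were, and 0 lower. Of the heat shock genes 6 were lower, where 0.402% of all genes were, and 0 higher, with a median of -0.32. Cardiomyocyte genes, which mark the muscle sleeve of pulmonary veins in mice, had a median log2 fold change of -0.65 for US over D with 0 of 12 called, and platelet and megakaryocyte genes one of -0.50 with 0 of 11 called. The same medians against the D libraries of days 1 and 28 were 0.31 and 0.10.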
